A study of Mus musculus with 141 samples.

Results

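Among 94 basophil and mast cell progenitors (BMCP) of mouse bone marrow sequenced as single cells, 89 passed the quality limits, and these were selected on their level of Car1, the gene of carbonic anhydrase 1. A BMCP was kept with at least 50000 reads on nuclear-encoded genes, at most 10% mitochondrial reads and at most 50% reads from ERCC, the synthetic RNAs added to every well. Levels are CPM, that is, counts per 1000000 nuclear-encoded reads of the cell. The 31 cells with at least 50 CPM of Car1 are called Car1-positive and the 56 cells with under 10 CPM are called Car1-negative. The 2 kept BMCP between these limits belonged to neither side, and 41 of 47 granulocyte and monocyte progenitors (GMP) that met the same limits are given as a comparison population. The series holds 141 cells in all.

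All cells came from the marrow of 3 female C57BL/6 mice with no treatment or mutation named, and their age is not given. BMCP were sorted for high integrin beta7 and high CD16/32 among live cells that carried Kit but neither lineage markers nor Sca1. GMP were drawn from the same Kit-positive cells outside that gate, with CD34 and high CD16/32. RNA with a poly(A) tail was copied and amplified over 23 PCR cycles in each well and read as 50-base single reads. Which mouse gave which cell is not labelled, so each side is 1 sample without replicates: no test between the sides was run, and the values below describe these libraries. Because no molecular identifier is named, PCR copies of a molecule are counted as separate reads. The Poisson limits below cover counting error only. The limits on shares of cells treat each cell as a separate draw, and neither kind covers differences between mice.

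BMCP are marrow progenitors whose offspring in culture are basophils and mast cells, the granulated cells that bind IgE through the receptor FceRI. Basophils and mast cells store proteases, the heparin-carrying proteoglycan serglycin and amines in their granules and make leukotrienes from arachidonic acid. Carbonic anhydrase 1 is a cytosolic zinc enzyme that interconverts CO2 and bicarbonate, is abundant in red cells and their precursors, and serves in mouse marrow as a mark of progenitors with erythroid potential.

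The values of Car1 chose the cells and are a description only. Car1 (ENSMUSG00000027556) lies on the minus strand at chr3:14766216-14808368 in GRCm38, the assembly also called mm10. Car1-positive cells ran between 65.4 and 1888 CPM with a median of 465 CPM, against 0 to 6.96 CPM with a median of 0.681 CPM in Car1-negative cells. No Car1 read was counted in 27 of the 56 Car1-negative cells, and the other 29 held 1 to 3 reads each. In GMP, 40 of 41 cells held no Car1 read and the whole population held 1. Just inside the upper limit stood BMCP 74 at 65.4 CPM, BMCP 57 at 95.2 CPM and BMCP 72 at 165 CPM. Just below the lower limit stood BMCP 19 at 6.96 CPM, BMCP 76 at 6.41 CPM and BMCP 43 at 6.21 CPM.

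**Figure D1:**
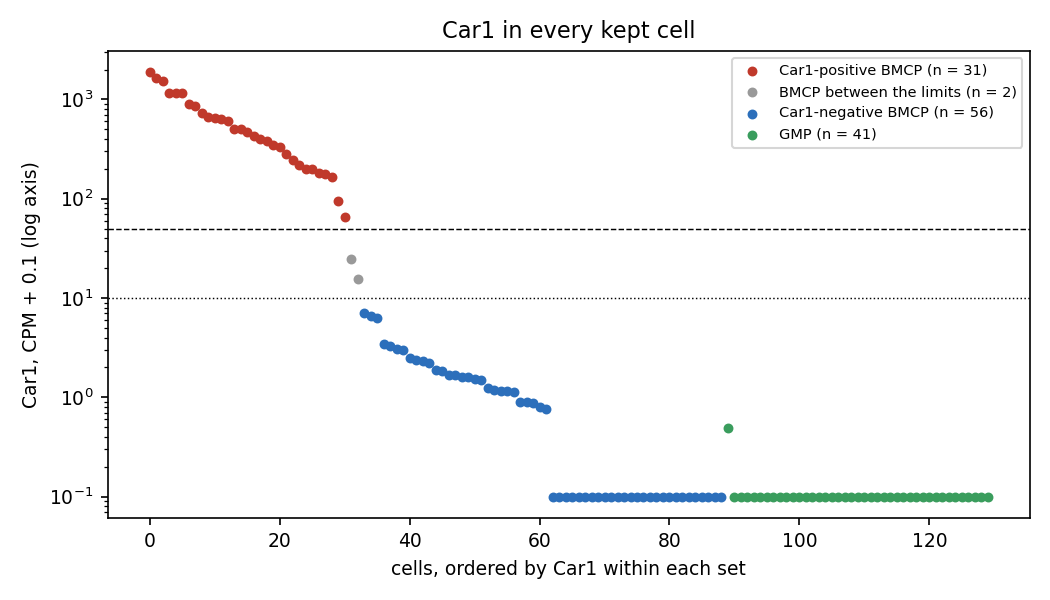
Car1 in each of the 130 kept cells, as CPM + 0.1 on a log axis (vertical), with cells ordered by Car1 within each set (horizontal), and the limits of 50 CPM (dashed) and 10 CPM (dotted). The 31 Car1-positive BMCP (red) lie between 65.4 and 1888 CPM, the 2 grey cells lie between the limits, the 56 Car1-negative BMCP (blue) do not pass 6.96 CPM, and 40 of 41 GMP (green) sit at the bottom with no read.

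The libraries of both sides were alike in depth and quality. Car1-positive cells had 96129 to 2416630 nuclear-encoded reads with a median of 997676, against 193015 to 2195040 with a median of 888932 in Car1-negative cells. The median share of mitochondrial reads was 4.20% in Car1-positive and 4.67% in Car1-negative cells, and that of ERCC reads was 11.3% in Car1-positive and 11.2% in Car1-negative cells. The summed nuclear-encoded reads per summed ERCC read came to 7.72 in Car1-positive and 7.38 in Car1-negative cells. To compare how many cells held a gene, each cell with at least 200000 reads was thinned at random to 200000, which left 30 Car1-positive and 55 Car1-negative cells; these then held a median of 4072.5 and 3973 genes. A gene counts as detected with at least 2 thinned reads, and 10 reads serve as a stricter mark. The BMCP numbers 1 to 47 and 48 to 94 were compared separately as a technical split, since depth differed between them: Car1-positive cells had a median of 492210 reads in the first range (15 cells) and 1283259 in the second (16 cells), and Car1-negative cells 702629 (29 cells) and 1097230 (27 cells).

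Genes of the sort markers were counted on both sides. Itgb7, which encodes the integrin chain used in the gate, had a summed level of 1208 CPM in Car1-positive and 1557 CPM in Car1-negative cells, against 48.5 CPM in GMP. Fcgr3, one of the CD16/32 receptors, had 500 CPM in Car1-positive and 525 CPM in Car1-negative cells. Ly6a, which encodes Sca1, held no read on either side. The early granulocyte genes that mark GMP, among them the granule enzymes Mpo and Elane, summed per cell to a median of 9.99 CPM in Car1-positive cells and 9.39 CPM in Car1-negative cells, against 47452 CPM in GMP.

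Across the 13756 genes with at least 1 CPM on either side, 40% differed at least 2-fold in summed level between the sides: 16.7% were higher and 23.2% were lower in Car1-positive cells. The ratio is that of summed CPM + 1 and its log2 had a median of -0.04 over all these genes. Only 4.08% of genes were at least 2-fold higher in both number ranges and 8.22% at least 2-fold lower in both, while 10.9% were 2-fold apart in opposite directions in the 2 ranges. A stricter set held 5350 genes, with at least 20 CPM on either side and detection in at least 25% of the cells of either side. Of these, 17.5% were 2-fold apart, 8.67% higher and 8.79% lower in Car1-positive cells. In both number ranges 3.01% of these genes were higher and 3.53% lower, and 5.14% went in opposite directions. These shares are the background against which the counts below are to be read, because a single cell can set the sum of a gene found in few cells.

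The genes that were lower in Car1-positive cells and were detected broadly were led by Cpa3 and Il1rl1. Cpa3 encodes the carboxypeptidase A3 of mast cell and basophil granules, and Il1rl1 encodes ST2, the receptor chain for interleukin 33. Their promoters are shown because these genes had the largest ratios towards Car1-negative cells among genes detected in at least 80% of the cells of that side. The sequences are RefSeq windows in GRCm38.p6, running 5′ to 3′ on the gene's own strand and spanning 250 bases before to 50 bases after an annotated start. Capitals mark AGATAA or TGATAA, forms of the site bound by GATA factors, or their reverse complements TTATCT or TTATCA. Other forms of the site, such as AGATAG, were not searched and stay in small letters.
Cpa3, chr3:20242132-20242431, minus strand: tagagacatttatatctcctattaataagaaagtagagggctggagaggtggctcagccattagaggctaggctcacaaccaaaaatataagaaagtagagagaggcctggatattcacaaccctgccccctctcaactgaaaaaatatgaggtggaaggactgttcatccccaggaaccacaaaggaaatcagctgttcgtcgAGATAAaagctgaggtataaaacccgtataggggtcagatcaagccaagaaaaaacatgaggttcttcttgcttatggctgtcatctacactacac
Il1rl1, distal start, chr1:40429320-40429619, plus strand: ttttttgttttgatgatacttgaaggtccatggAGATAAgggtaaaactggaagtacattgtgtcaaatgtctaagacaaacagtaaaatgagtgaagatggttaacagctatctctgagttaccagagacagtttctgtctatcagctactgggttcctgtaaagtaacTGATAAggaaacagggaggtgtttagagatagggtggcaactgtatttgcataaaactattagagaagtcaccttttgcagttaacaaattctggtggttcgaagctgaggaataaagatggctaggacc
Il1rl1, proximal start, chr1:40439379-40439678, plus strand: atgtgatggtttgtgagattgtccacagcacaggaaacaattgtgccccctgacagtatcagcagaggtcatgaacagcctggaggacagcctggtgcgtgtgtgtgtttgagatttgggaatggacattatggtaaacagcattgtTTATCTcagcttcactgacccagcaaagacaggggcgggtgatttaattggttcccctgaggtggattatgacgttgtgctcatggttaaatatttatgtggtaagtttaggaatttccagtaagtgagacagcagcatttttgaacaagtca
The Cpa3 window held 1 match, the distal Il1rl1 window 2 and the proximal one 1. Of 32851 promoter windows of the same length in the table, 18.6% held at least 1. A match describes the letters and shows no bound factor. Among the other genes looked up, the Il9r window held 2 and the Klf1 window 1, and those of Cyp11a1, Mcpt8, Cma1, Alox5, Id2, Meis1, Stxbp2, Aqp1 and Igfbp4 held none. By symbol, 13 of 16 genes looked up matched the table; the others were Car1, Atp1b2 and Pdgfrb.

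Cpa3 (ENSMUSG00000001865) had 1991 CPM over the 31 Car1-positive cells (95% exact Poisson limits 1976 to 2007) and 7766 CPM over the 56 Car1-negative cells (7742 to 7790). Per cell it ran from 123 to 6336 CPM with a median of 1495 in Car1-positive cells, and from 94 to 30931 CPM with a median of 4043 in Car1-negative cells. Every thinned cell held it, 30 of 30 Car1-positive and 55 of 55 Car1-negative, so the sides differed in level and not in the number of cells. The sides overlapped: 19 of the 56 Car1-negative cells lay above the highest Car1-positive cell, and 4 of the 31 Car1-positive cells lay above the median of the Car1-negative cells. The log2 ratio was -1.96 over all cells, -2.19 within numbers 1 to 47 and -1.77 within numbers 48 to 94.

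Il1rl1 (ENSMUSG00000026069) had 112 CPM in Car1-positive cells (108 to 116) and 436 CPM in Car1-negative cells (431 to 442). Per cell it ran from 0 to 571 CPM with a median of 32.4 in Car1-positive cells and from 0 to 2116 CPM with a median of 266 in Car1-negative cells. It was detected in 20 of 30 Car1-positive and 46 of 55 Car1-negative thinned cells, and at 10 reads in 14 and 41 of them. Alox5, the 5-lipoxygenase that starts leukotriene synthesis, had 438 CPM in Car1-positive and 1159 CPM in Car1-negative cells, with medians of 175 and 730 CPM per cell. Its log2 ratio was -1.40 over all cells, -2.06 in the first number range and -1.12 in the second.

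Cyp11a1, Mcpt8 and Cma1 were at high levels in part of the Car1-negative cells and in few Car1-positive cells. Cyp11a1, the mitochondrial enzyme that cleaves the cholesterol side chain and is expressed in mouse basophils, had 101 CPM in Car1-positive cells (97.3 to 104) and 903 CPM in Car1-negative cells (895 to 911). BMCP 71 held most of the Car1-positive reads, and without it that side had 47.3 CPM. Cyp11a1 was detected in 9 of 30 Car1-positive cells, 30% with exact Clopper-Pearson limits of 14.7% to 49.4%, and in 42 of 55 Car1-negative cells, 76.4% with limits of 63% to 86.8%. Its median per cell was 4.52 CPM in Car1-positive and 557 CPM in Car1-negative cells, and 15 of 56 Car1-negative cells exceeded every Car1-positive cell.

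Mcpt8, the basophil protease, had 39.6 CPM in Car1-positive cells and 1075 CPM in Car1-negative cells. A single cell, BMCP 29, gave 88.6% of the Car1-positive reads, and the side had 4.71 CPM without it. Mcpt8 was detected in 6 of 30 Car1-positive and 30 of 55 Car1-negative cells, and at 10 reads in 2 and 18. Cma1, the mast cell chymase, had 87.5 CPM in Car1-positive cells, 44.5 CPM without BMCP 46, and 2379 CPM in Car1-negative cells. For Cma1 the sides hardly differed in bare detection, 17 of 30 Car1-positive against 33 of 55 Car1-negative cells, and parted at 10 reads, with 6 and 20 cells. At least 10 reads of Mcpt8 or Cma1 were found in 7 of 30 Car1-positive cells (23.3%, limits 9.93% to 42.3%) and in 25 of 55 Car1-negative cells (45.5%, limits 32.0% to 59.4%). Both genes at that mark were held by 1 of 30 Car1-positive and 13 of 55 Car1-negative cells.

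**Figure D2:**
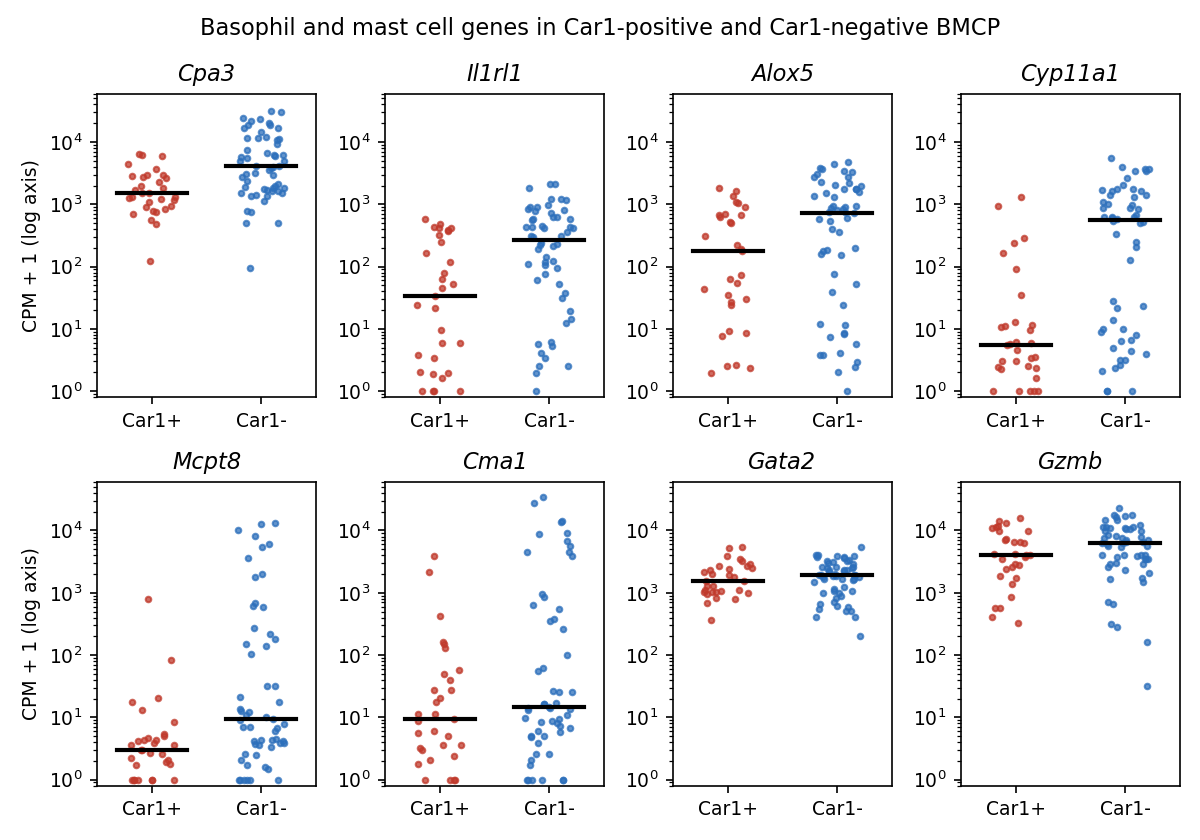
Level of 8 basophil and mast cell genes in each of 31 Car1-positive (left, red) and 56 Car1-negative BMCP (right, blue), as CPM + 1 on a log axis; black bars mark the median cell. The median Cpa3 level was 1495 CPM in Car1-positive and 4043 CPM in Car1-negative cells, the Cyp11a1 medians were 4.52 and 557 CPM, and Gata2 and Gzmb were at high levels in cells of both sides.

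The 8 basophil genes considered held 7 that reached 1 CPM, of which none was 2-fold higher and 5 were 2-fold lower in Car1-positive cells, with a median log2 ratio of -3.94. The share of all genes that were lower was 23.2%. The 5 were Mcpt8, Cyp11a1, the activating receptor Cd200r3, the eotaxin receptor Ccr3 and the protease Prss34, and the first 4 were lower in both number ranges. Prss34 does not belong with them in breadth: BMCP 12 held nearly all of its Car1-negative reads, and it had 0.638 CPM in Car1-positive against 0.567 CPM in Car1-negative cells without that cell. The cytokine genes Il6 and Il4 were under 2-fold apart as summed. Il6 had 275 CPM in Car1-positive and 272 CPM in Car1-negative cells. Il4 had 21.8 CPM in Car1-positive cells, 15.8 CPM without BMCP 59, and 32.7 CPM in Car1-negative cells, and was detected in 7 of 30 and 23 of 55 cells. Il13 stayed under 1 CPM on both sides. Summed per cell, the 8 genes came to 2.37 to 2131 CPM with a median of 253 in Car1-positive cells and 17.3 to 16937 CPM with a median of 1225 in Car1-negative cells.

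Of 11 mast cell genes, 4 reached 1 CPM, and 2 of them, Cma1 and the tryptase Tpsb2, were 2-fold lower in Car1-positive cells. The share of all genes that were lower was 23.2%. Tpsb2 came from 1 cell, BMCP 36, and the list's median log2 ratio was -2.35 with that cell and -0.47 without it. Another 4 of the 11, among them the protease genes Mcpt2 and Mcpt4, held no read in these 87 cells, and Mcpt1, Tpsab1 and Mrgprb2 stayed under 1 CPM. Gzmb, which encodes granzyme B, had 5235 CPM in Car1-positive and 7256 CPM in Car1-negative cells and was detected in all 30 and all 55 thinned cells. Mitf, a transcription factor that mast cells require, had 62.8 CPM in Car1-positive and 82.2 CPM in Car1-negative cells.

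All 12 genes shared by basophils and mast cells reached 1 CPM, and 6 were 2-fold lower and none 2-fold higher in Car1-positive cells, with a median log2 ratio of -0.96. For all genes the shares were 23.2% lower and 16.7% higher. Cpa3, Il1rl1, Alox5 and Fcer1a were lower in both number ranges. Fcer1a, the IgE-binding chain of FceRI, had 27.1 CPM in Car1-positive cells, 13.9 CPM without BMCP 46, and 184 CPM in Car1-negative cells. It was detected in 3 of 30 Car1-positive and 14 of 55 Car1-negative cells. Ms4a2, the beta chain of the same receptor, gave different pictures by sum and by cell. Its sums were 827 CPM in Car1-positive and 735 CPM in Car1-negative cells, whereas the median cell had 64.9 and 621 CPM, and at least 10 reads were found in 18 of 30 and 45 of 55 cells. Fcer1g, the gamma chain, had 965 CPM in Car1-positive and 1361 CPM in Car1-negative cells and was found in every thinned cell of both. Srgn, which encodes serglycin, had 3369 and 4067 CPM, and Slc18a2, the vesicular amine transporter, had 750 and 1013 CPM. Hdc, the enzyme that makes histamine, had 331 CPM in Car1-positive and 186 CPM in Car1-negative cells.

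Around the Fc receptors, 18 of 19 genes reached 1 CPM, and 2 were higher and 2 lower by 2-fold, with a median log2 ratio of -0.13. Over all genes 16.7% were higher and 23.2% lower. Lyn, the Src-family kinase that starts signalling from FceRI, was lower in both ranges, with 71 CPM in Car1-positive and 212 CPM in Car1-negative cells. Fyn, another kinase of that family, had 79.2 CPM in Car1-positive cells, 43.9 CPM without BMCP 47, and 30.4 CPM in Car1-negative cells. Syk had 131 CPM in Car1-positive and 190 CPM in Car1-negative cells, and the adaptor Lat2 had 511 and 820 CPM.

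Of 15 heparin and granule matrix genes, 5 were 2-fold lower and 2 were 2-fold higher in Car1-positive cells, with a median log2 ratio of -0.27. In both number ranges 4 were lower and 2 higher. Over all genes 23.2% were lower and 16.7% higher. Ndst2, the sulfotransferase that mouse mast cells need for heparin, had 62.2 CPM in Car1-positive and 422 CPM in Car1-negative cells, was detected in 13 of 30 and 35 of 55 cells, and held at least 10 reads in 8 and 32. The sulfotransferase Hs6st1 had 16.1 CPM in Car1-positive cells, 6.04 CPM without BMCP 59, and 81.3 CPM in Car1-negative cells. Hs3st1 had 46.9 CPM in Car1-positive cells, 8.72 CPM without the same cell, and 260 CPM in Car1-negative cells. In the other direction stood Chst11, a chondroitin sulfotransferase, with 153 CPM in Car1-positive cells, 93.6 CPM without BMCP 57, and 19.7 CPM in Car1-negative cells, 12.1 CPM without BMCP 58, but it was detected in only 6 of 30 and 6 of 55 cells. Glce, the epimerase that acts on the heparin chain, had 81.8 CPM in Car1-positive cells, 56.1 CPM without BMCP 25, and 30.2 CPM in Car1-negative cells, 8.76 CPM without BMCP 28, and was detected in 4 of 30 and 4 of 55 cells.

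Of 8 leukotriene and prostaglandin genes, 5 were 2-fold lower and none was 2-fold higher in Car1-positive cells, with a median log2 ratio of -1.42. The share of all genes that were lower was 23.2%. Beside Alox5, Hpgds, the prostaglandin D synthase of hematopoietic cells, had 23.7 CPM in Car1-positive cells, 8.13 CPM without BMCP 68, and 128 CPM in Car1-negative cells. It was detected in 4 of 30 Car1-positive and 16 of 55 Car1-negative cells. Ltc4s, the leukotriene C4 synthase, was low on both sides, with 0.510 CPM in Car1-positive cells, all from BMCP 91, and 3.07 CPM in Car1-negative cells. Lta4h, the hydrolase of leukotriene A4, had 137 and 104 CPM.

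Among cytokine receptors, 19 of 24 reached 1 CPM. Of these, 3 were 2-fold higher and 7 2-fold lower in Car1-positive cells, with a median log2 ratio of -0.55. For all genes these shares were 16.7% higher and 23.2% lower. Il9r, the interleukin 9 receptor, was detected in none of 30 Car1-positive and 13 of 55 Car1-negative cells, with 0.191 CPM (0.0702 to 0.417) and 65.3 CPM (63.1 to 67.5). Il4ra had 9.47 CPM in Car1-positive cells, 2.33 CPM without BMCP 17, and 142 CPM in Car1-negative cells. Interleukin 3 is a growth factor of basophils and mast cells, and the genes of its receptor chains differed from each other in their gaps. Csf2rb2, the beta chain particular to interleukin 3 in the mouse, had 160 CPM in Car1-positive and 504 CPM in Car1-negative cells, with log2 ratios of -0.46 and -2.53 in the number ranges. Its close copy Csf2rb had 363 and 589 CPM, and reads that fit both copies may be split between them. Il3ra, the alpha chain, had 44.4 and 49.8 CPM. Kit, the stem cell factor receptor used in the sort, had 904 CPM in Car1-positive and 1588 CPM in Car1-negative cells, with medians of 794 and 1359 CPM and a log2 ratio of -0.87 and -0.78 in the number ranges. The common gamma chain Il2rg had 872 and 842 CPM. Ifngr1, the ligand-binding chain of the interferon gamma receptor, was the broad exception, with 1364 CPM in Car1-positive and 647 CPM in Car1-negative cells.

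A further set of 36 genes, some of them list members, was chosen after their values were seen, by breadth or by share of cells. In breadth, the genes had to be detected in at least 80% of cells of the higher side. In share, they had the largest gap in the share of cells with at least 10 reads, in the same direction in both number ranges. Both rules took the first 10 genes in each direction, so their gaps are a description and support nothing. Beside Cpa3, Il1rl1 and Alox5, the broad genes lower in Car1-positive cells were Reep5, Id2, Meis1, Tyrobp, Iqgap1, Dock10 and Serpinb1a. Id2, an inhibitor of E proteins, had 510 CPM in Car1-positive and 1391 CPM in Car1-negative cells. Meis1, a homeobox factor of early progenitors, had 206 and 488 CPM, with at least 10 reads in 12 of 30 and 39 of 55 cells. Tyrobp, the signalling adaptor DAP12, had 387 and 879 CPM. Reep5, a shaper of the endoplasmic reticulum, had 125 and 399 CPM, and 21 of 56 Car1-negative cells exceeded every Car1-positive cell.

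The broad genes on the side of Car1-positive cells were Pdgfrb, Stxbp2, Phip, Atp1b2, Vamp5, Hdac7, Sept6, Smarca4, Ifngr1 and Scd2. Atp1b2, a beta subunit of the sodium and potassium pump, had the largest gap in share. It had 663 CPM in Car1-positive cells (654 to 672) and 257 CPM in Car1-negative cells (253 to 262), with medians of 574 and 6.52 CPM per cell. At least 10 reads were found in 26 of 30 Car1-positive cells, with limits of 69.3% to 96.2%, and in 23 of 55 Car1-negative cells, with limits of 28.7% to 55.9%. The Car1-negative cells thus held both cells at the level of the Car1-positive median and 8 cells with no read, and the highest single value, 2337 CPM, was a Car1-negative cell.

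Pdgfrb, the beta receptor of platelet-derived growth factor, had 505 CPM in Car1-positive and 180 CPM in Car1-negative cells and medians of 280 and 4.92 CPM. GMP had 25.1 CPM. Stxbp2, which encodes Munc18-2, a syntaxin partner in granule release, had 578 and 208 CPM on the same sides, and 10 reads in 24 of 30 and 27 of 55 cells. Vamp5, a vesicle membrane protein, had 303 CPM in Car1-positive and 120 CPM in Car1-negative cells. Hdac7, a class II histone deacetylase, had 581 and 240 CPM, with medians of 529 and 57.5 CPM. Smarca4, the ATPase of the BAF complex, had 468 and 211 CPM, and Phip, a bromodomain protein, had 371 and 139 CPM.

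By share of cells, Dpp4, Spint2, Irf2, Tnik, Fut8 and the unnamed transcript 4930519L02Rik also stood on the side of Car1-positive cells. Dpp4, the surface peptidase CD26, held at least 10 reads in 17 of 30 Car1-positive and 10 of 55 Car1-negative cells, with 199 and 67.6 CPM. Spint2, a serine protease inhibitor, did so in 21 of 30 and 18 of 55 cells, with 240 and 87 CPM. 4930519L02Rik held at least 10 reads in all 30 Car1-positive cells and in 34 of 55 Car1-negative cells, with 356 and 210 CPM. On the other side, Adgre5, the adhesion receptor CD97, held at least 10 reads in 12 of 30 Car1-positive and 40 of 55 Car1-negative cells, with 97.3 and 424 CPM. Inpp5b, an inositol phosphatase, did so in 6 and 34 cells, with 163 and 381 CPM. Atp8b5 did so in 8 and 34 cells, with 130 CPM in Car1-positive cells, 71 CPM without BMCP 71, and 525 CPM in Car1-negative cells. Dmd, which encodes dystrophin, did so in 2 and 21 cells, with 14.6 and 142 CPM.

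**Figure D3:**
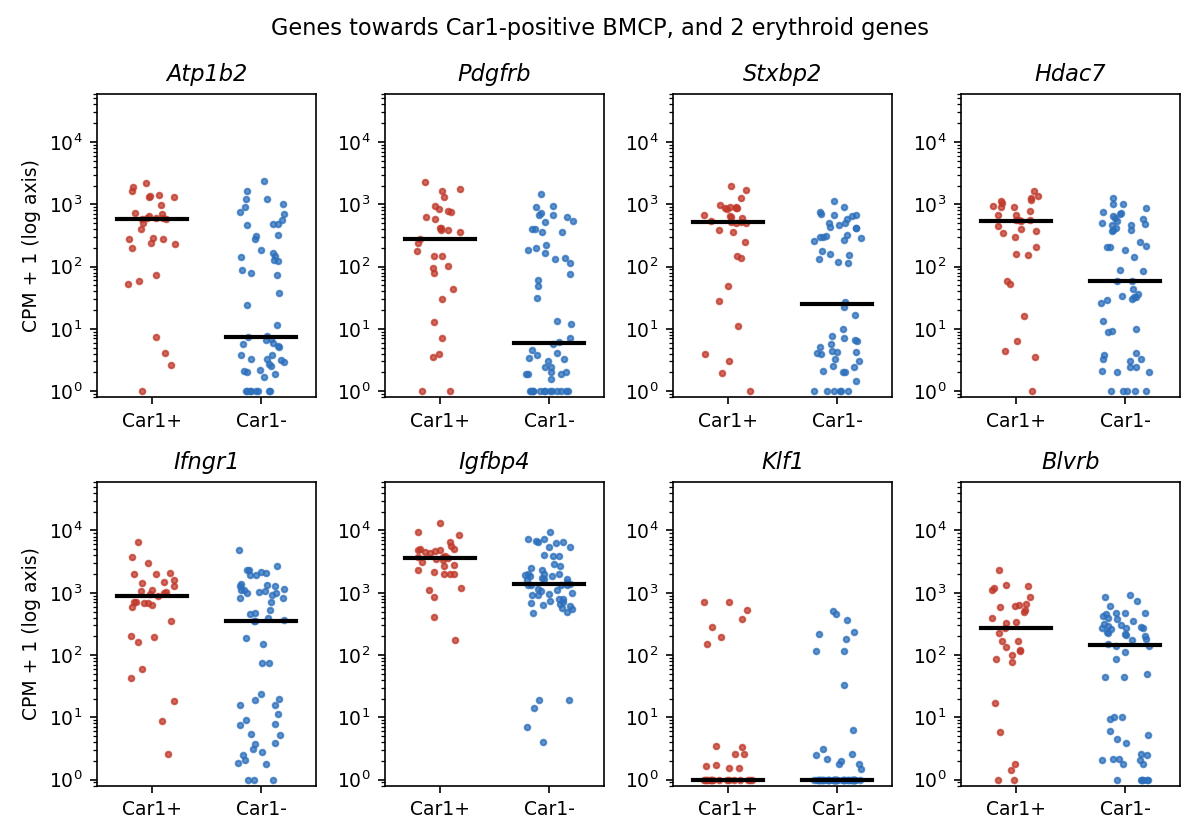
Level of 6 genes on the side of Car1-positive cells and of the erythroid genes Klf1 and Blvrb in each of 31 Car1-positive (left, red) and 56 Car1-negative BMCP (right, blue), as CPM + 1 on a log axis; black bars mark the median cell. The Atp1b2 medians were 574 CPM in Car1-positive and 6.52 CPM in Car1-negative cells, whereas the median Klf1 level was 0 on both sides.

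Since Car1 is best known from red cell precursors, the erythroid genes were of interest. Of 18, 8 reached 1 CPM. Of these, 3 were 2-fold higher and 2 were 2-fold lower in Car1-positive cells, 1 and 0 of them in both number ranges. Among all genes 16.7% were higher and 23.2% lower. The list's median log2 ratio was 0.95 over all cells, 0.07 in the first number range and 1.24 in the second. Its members ran from -3.46 to 5.86. The lowest member was detected in none of 30 Car1-positive and 6 of 55 Car1-negative cells, with 1.63 and 27.9 CPM. Its log2 ratios were -5.77 and -0.20 in the number ranges, and -0.79 from the mean of the cells' CPM. BMCP 89, with 96129 reads not among the 30 thinned cells, gave 96.1% of this member's Car1-positive reads. That cell had 510 CPM of it, and the highest Car1-negative cell had 480 CPM. Klf1, the erythroid Kruppel-like factor, had 114 CPM in Car1-positive and 35.8 CPM in Car1-negative cells, but was detected in only 7 of 30 and 9 of 55 cells. Aqp1, a water channel, had 62.8 CPM in Car1-positive cells, of which BMCP 91, also the cell with the most Car1, gave nearly all: without it the side had 0.566 CPM, against 0.0958 CPM in Car1-negative cells. Blvrb, biliverdin reductase B, was the broad member, with 439 CPM in Car1-positive and 220 CPM in Car1-negative cells, detection in 26 of 30 and 36 of 55 cells and log2 ratios of 0.83 and 1.06 in the number ranges.

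The defining products of red cells were not detected in Car1-positive cells. The globin genes Hba-a1, Hba-a2, Hbb-bs and Hbb-bt held no read in any Car1-positive cell, which allows up to 0.0957 CPM by a limit of 3 reads over the side, and at most 1.03 CPM in Car1-negative cells. Rhag, Add2 and Trim10 held no read on either side. Epor, the erythropoietin receptor, was detected in 1 of 30 Car1-positive and 2 of 55 Car1-negative cells. Kel, which encodes the Kell blood group protein and was in no list, was detected in 14 of 30 Car1-positive and 10 of 55 Car1-negative cells, with 132 and 69.8 CPM, and was singled out after its values were seen. At least 10 reads of Klf1 or Aqp1 were found in 7 of 30 Car1-positive cells (23.3%, limits 9.93% to 42.3%). The same held for 8 of 55 Car1-negative cells (14.5%, limits 6.5% to 26.7%), and the gap was not tested. Of those cells, 1 Car1-positive and 3 Car1-negative cells also held Mcpt8 or Cma1 at that mark.

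The regulators that erythroid, megakaryocyte and mast cell lineages share were mostly alike. Of 15, 2 were 2-fold higher and 2 were 2-fold lower in Car1-positive cells, none of them in both number ranges, with a median log2 ratio of -0.02. For this and the next 2 lists, the shares of all genes were 16.7% higher and 23.2% lower. Gata2, which BMCP express throughout, had 2068 CPM in Car1-positive and 2092 CPM in Car1-negative cells, with medians of 1564 and 1932 CPM and detection in every thinned cell. Gata1 had 125 and 159 CPM, Tal1 135 and 142 CPM, Runx1 753 and 834 CPM, and Myb 289 and 260 CPM. Nfe2 had 403 CPM in Car1-positive and 286 CPM in Car1-negative cells. Gfi1b had 23.2 CPM, 9.70 CPM without BMCP 8, against 59.1 CPM, and Fli1, an ETS factor of megakaryocytes, had 181 and 373 CPM. All 17 heme and iron genes reached 1 CPM, with 2 higher and 3 lower by 2-fold, none in both ranges, and a median log2 ratio of -0.02. Of 13 megakaryocyte genes, 6 reached 1 CPM, with 1 higher, 1 lower and a median log2 ratio of -0.08. Itga2b, the integrin CD41, had 203 CPM in Car1-positive and 332 CPM in Car1-negative cells, and the tetraspanin Cd9 had 414 and 404 CPM.

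Of 15 carbonic anhydrase genes other than Car1, 6 reached 1 CPM, and none was 2-fold higher and 3 were 2-fold lower in Car1-positive cells. Their median log2 ratio was -1.35, but 0.16 in the first number range and -2.31 in the second. Among all genes 16.7% were higher and 23.2% lower. Car2, which lies near Car1 on chromosome 3 and is also found in red cells, had 243 CPM in Car1-positive and 247 CPM in Car1-negative cells and was detected in 13 of 30 and 24 of 55 cells. Car13 had 10.05 CPM in Car1-positive cells and 64.6 CPM in Car1-negative cells, 29.4 CPM without BMCP 50, with log2 ratios of -0.22 and -5.13 in the number ranges. Car3, which lies between Car1 and Car2, was detected in 1 and 3 cells. Car8 was the 1 member 2-fold lower in both number ranges, with log2 ratios of -1.42 and -4.28. It had 2.97 CPM in Car1-positive and 38.6 CPM in Car1-negative cells and was detected in 2 of 30 and 6 of 55.

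**Figure D4:**
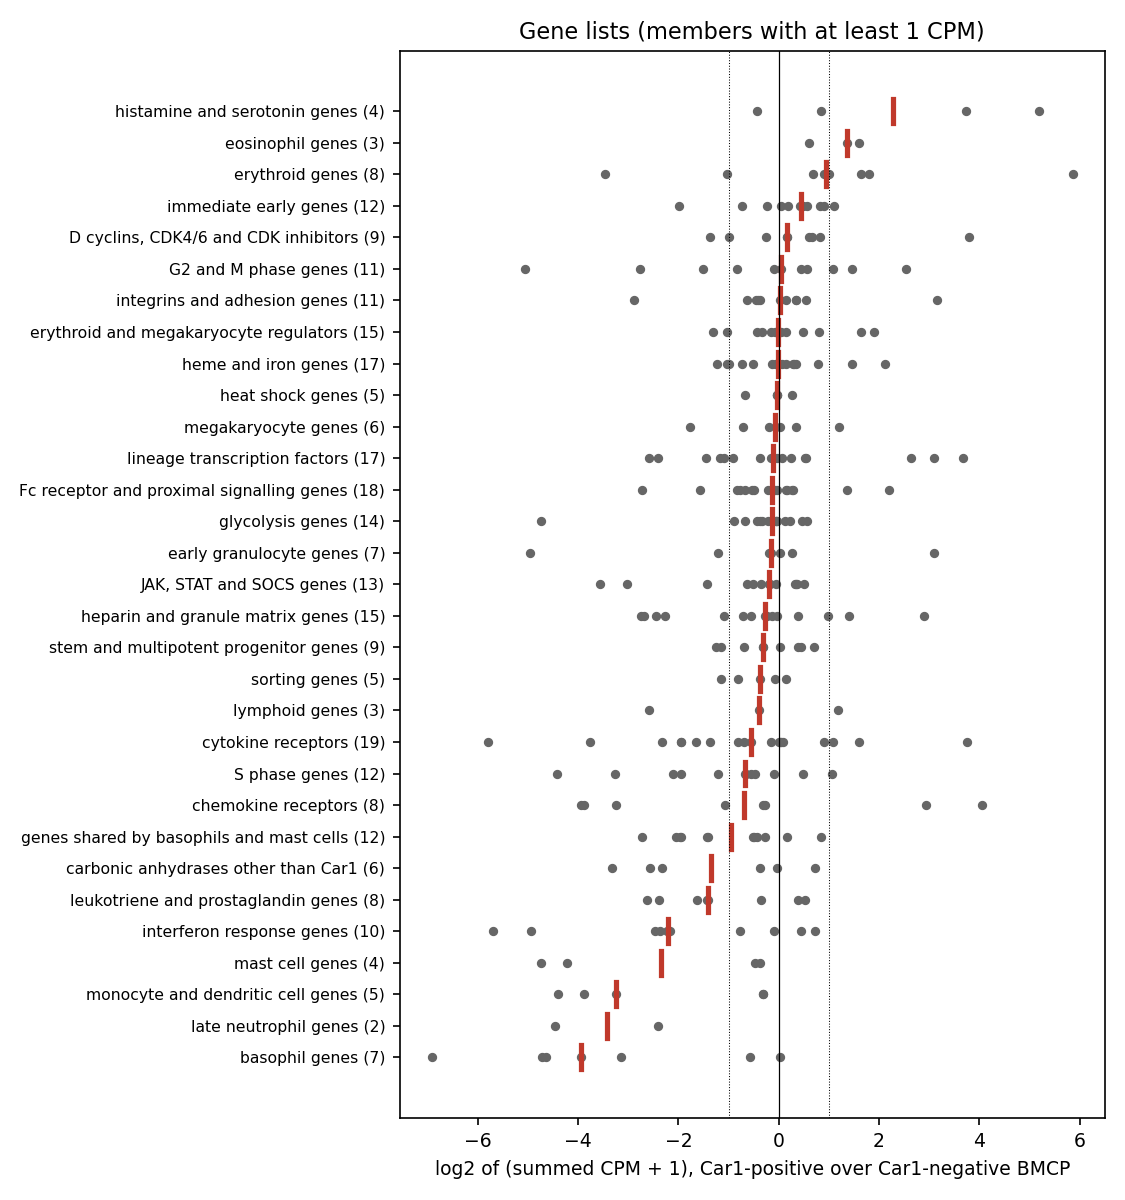
Log2 ratio of (summed CPM + 1) in Car1-positive over Car1-negative BMCP (horizontal) for the members of 31 gene lists with at least 1 CPM; each grey point is a gene, each red bar the list's median, the number of members is in brackets, and dotted lines mark 2-fold. The basophil genes have the lowest median at -3.94, the shared basophil and mast cell genes stand at -0.96 and the erythroid genes at 0.95. The erythroid median was 0.07 within numbers 1 to 47 and 1.24 within numbers 48 to 94. Lists of 2 to 4 members rest on few cells.

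Of 13 stem and progenitor genes, 9 reached 1 CPM, with none 2-fold higher and 2 lower, a share near the 23.2% of all genes that were lower. Their log2 ratios ran from -1.24 to 0.71 with a median of -0.31. The 2 were Meis1 and Cd34. Cd34, the sialomucin of early progenitors, had 294 CPM in Car1-positive and 658 CPM in Car1-negative cells, with medians of 7.23 and 383 CPM, and at least 10 reads in 12 of 30 and 34 of 55 cells. Its log2 ratio was -3.58 in the first number range and -0.42 in the second. Angpt1 had 1138 and 1112 CPM and was found in nearly all cells of both sides. Igfbp4, a binding protein of insulin-like growth factors and found in every thinned Car1-positive cell, had 4108 CPM in Car1-positive and 2197 CPM in Car1-negative cells, with medians of 3607 and 1360 CPM; it was singled out after its values were seen. Among 17 lineage transcription factors that reached 1 CPM of 20, 3 were higher and 5 lower by 2-fold, beside 16.7% and 23.2% of all genes. Lmo4 had 3455 CPM in Car1-positive and 2407 CPM in Car1-negative cells, and Spi1, which encodes PU.1, had 78 CPM, 48.9 CPM without its highest cell, against 148 CPM.

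Genes of the S phase had a median sum of 758 CPM per cell in Car1-positive and 710 CPM in Car1-negative cells, and those of the G2 and M phases had medians of 71.1 and 6.60 CPM. Of 12 S phase genes, 1 was 2-fold higher and 5 were 2-fold lower in Car1-positive cells, and of 11 G2 and M phase genes that reached 1 CPM, 3 were higher and 3 lower. Over all genes 16.7% were higher and 23.2% lower. Mki67, the proliferation antigen, was detected in 1 of 30 Car1-positive and 5 of 55 Car1-negative cells. The 1 cell, BMCP 29, also held nearly all Car1-positive reads of Ube2c and most of those of Mcpt8. Without it the Car1-positive cells had 0.601 CPM of Mki67. Cdk6, the kinase paired with D cyclins, was found in nearly all cells, with 2391 CPM in Car1-positive and 1351 CPM in Car1-negative cells and log2 ratios of 0.58 and 0.95 in the number ranges. Ccnd2, cyclin D2, had 301 and 600 CPM, with ratios of -0.77 and -1.12.

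The remaining lists are given by count, beside 16.7% of all genes that were 2-fold higher and 23.2% that were 2-fold lower in Car1-positive cells. Of 12 immediate early genes at 1 CPM or more, 1 was higher and 1 lower by 2-fold, with a median log2 ratio of 0.44 that was -0.62 in the first number range and 0.49 in the second. Fos had 1693 CPM in Car1-positive cells, 974 CPM without BMCP 56, and 957 CPM in Car1-negative cells, with log2 ratios of -0.77 and 1.07 in the ranges, and Jun had 1686 and 899 CPM. None of 5 heat shock genes was 2-fold apart, and 1 of 14 glycolysis genes was lower. Of 13 JAK, STAT and SOCS genes, 3 were lower, a share near the 23.2% of all genes, and none was higher. Of 11 integrin and adhesion genes, 1 was higher and 1 lower. Of 8 chemokine receptors, 2 were higher and 4 lower. Of 10 interferon response genes, 6 were lower and none was higher, with a median log2 ratio of -2.20 that changed to 0.30 without BMCP 50, which held 84.9% of the Car1-negative reads of Rsad2. Ifitm1 in the same list had 3825 CPM in Car1-positive and 2328 CPM in Car1-negative cells. Of 4 histamine and serotonin genes, 2 were higher, and Maoa among them was detected in 1 of 30 Car1-positive and no Car1-negative cell. Of 5 sorting genes, 1 was lower. Markers of other cells were few: of 3 eosinophil genes 2 were higher, of 7 early granulocyte genes 1 was higher and 2 lower, of 2 late neutrophil genes both were lower, of 5 monocyte and dendritic cell genes 3 were lower, and of 3 lymphoid genes 1 was higher and 1 lower. In the late neutrophil genes the highest cell had 4.33 CPM in Car1-positive and 481 CPM in Car1-negative cells, and the median was 0 on both sides. For early granulocyte genes, BMCP 12 held 64.9% of the Car1-negative reads of Ctsg. The part of such reads in the gaps above was not tested.

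Genes were also ranked by the size of the ratio among those with at least 20 CPM and detection in at least 25% of cells on the higher side, no cell with 30% of its reads, and the same direction in both number ranges. On the side of Car1-positive cells these were led by Cd1d2, with 41.6 CPM in Car1-positive and 2.18 CPM in Car1-negative cells, and Rab3gap2, with 111 CPM in Car1-positive and 10.6 CPM in Car1-negative cells, 6.57 CPM without BMCP 10. Snhg5, a host of small nucleolar RNAs, was detected in 15 of 30 Car1-positive and 10 of 55 Car1-negative cells, with 138 and 26.4 CPM, and without BMCP 90 the Car1-negative cells had 16 CPM. Pdk3, a pyruvate dehydrogenase kinase, was detected in 13 and 6 cells, with 169 and 26.3 CPM, and without BMCP 79 the Car1-negative cells had 12.7 CPM. On the side of Car1-negative cells they were led by ENSMUSG00000089672, for which the gene tables gave no symbol, with 2.33 CPM in Car1-positive cells, 0.419 CPM without BMCP 4, and 246 CPM in Car1-negative cells, and by Prkcb, protein kinase C beta, with 1.91 CPM in Car1-positive cells, 0.352 CPM without BMCP 89, and 161 CPM in Car1-negative cells. ENSMUSG00000089672 was detected in 3 of 30 Car1-positive and 23 of 55 Car1-negative cells, Prkcb in none and 22, and Rgs10, a regulator of G protein signalling, in 1 and 16. BMCP 89, with 510 CPM of Prkcb, had too few reads to be among those 30 cells. The side with the lower level held these genes in few cells, and fewer cells with a transcript and less transcript per cell cannot be told apart there.

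**Figure D5:**
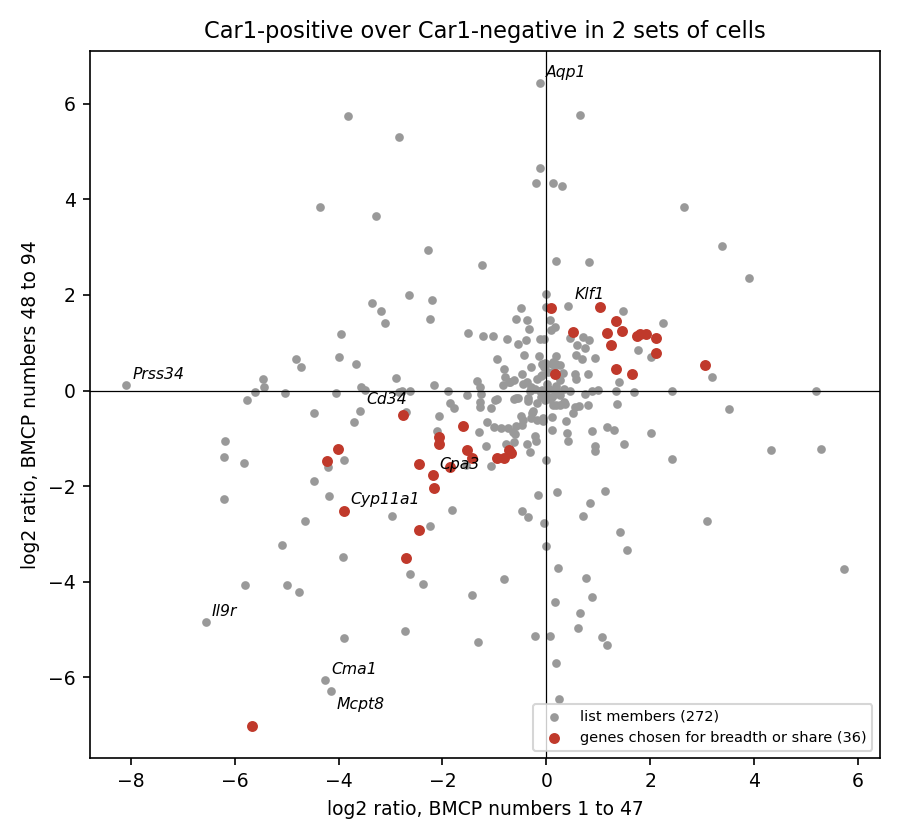
Log2 ratio of (summed CPM + 1), Car1-positive over Car1-negative BMCP, within BMCP numbers 1 to 47 (horizontal) and within numbers 48 to 94 (vertical), for list members with at least 1 CPM (grey) and for 36 genes chosen for breadth or share (red, chosen to have the same direction in both ranges). Cpa3, Cyp11a1, Mcpt8, Cma1 and Il9r were below 0 in both ranges, whereas Aqp1 and Prss34 were far from 0 in 1 range only.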

How the data were processed

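Each library is 1 cell. The authors deposited whole-number read counts per gene for every cell in a single table. Per the submitters' processing notes, GSNAP, HTSeq 0.5.3p3 and the build mm10 were used; no release of the gene annotation is stated there or in the labels. Symbols and positions were taken from GENCODE vM21, promoter windows from RefSeq. In kept cells 15.3% of all counted reads had no feature, 4.57% were ambiguous and 29.4% were not aligned. These rows and ERCC stayed out of library sizes.

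CPM were computed from nuclear-encoded counts of each cell, sides were summed, and ratios used a pseudocount of 1 CPM. A gene was compared with at least 1 CPM on either side. Exact Poisson and Clopper-Pearson limits have a level of 95%. Each cell was thinned to 200000 reads for shares, with a fixed random seed. A number range marks BMCP 1 to 47 or 48 to 94, a split by the labels' numbers. Computation used Python 3.11.15, pandas 2.3.3, numpy 2.4.6 and scipy 1.17.1, and was checked on simulated data. No 2 cells had identical counts.

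Named genes are the members of 31 lists, genes leading by ratio (the 15 largest each way under the limits given in the text), and the 36 chosen by breadth or share. The members and lists were chosen with earlier results of these data known. A member of the erythroid list is not reported by name here. No test was run, because each side is 1 sample. Alternatives were other scalings, pseudocounts, filters, Car1 limits, depths, number ranges and each cell left out in turn.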

Additional observations from a re-analysis of the deposited data

Results flagged for a closer look

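Car1 reads were also counted in 3 BMCP that the comparison does not use, each above the highest GMP value of 0.385 CPM. BMCP 92 had 15.4 CPM from 9 reads and BMCP 77 had 24.7 CPM from 3 reads, so both fell between the limits. BMCP 81 had 758 CPM from 451 reads, within the range of the Car1-positive cells, and was left out because 14% of its reads were mitochondrial.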

How the results depend on the processing

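No paired analysis was possible because no cell is tied to a mouse and no test was run. Of 103 named genes at least 2-fold apart, 96 kept their direction in 16 settings and with each of 87 cells left out in turn. Part of this count was fixed by selection. The genes ranked by ratio and the 36 chosen by breadth or share had to point the same way in both number ranges. Both ranges are among the settings. Genes ranked by ratio also had no cell with 30% of their reads on the higher side. For these genes the count is therefore no independent measure of stability. The 5498 genes 2-fold apart became 2440 with a pseudocount of 10 (1057 higher, 1383 lower in Car1-positive cells) and 3426 at 10 CPM or more (1889 lower). With a pseudocount of 10, 268 genes were higher and 513 lower in both number ranges, against 561 and 1131 with 1. At 10 reads, Mcpt8 was found in 6.67% of Car1-positive and 32.7% of Car1-negative cells, Cma1 in 20% and 36.4%, and Il1rl1 in 46.7% of Car1-positive cells. Among lists and genes at least 2-fold apart, and with the 1 CPM limit applied within the range, directions changed within numbers 1 to 47 for the eosinophil list (-0.49), the interferon list (0.041), Aqp1 (-0.13), Car3 (0.88) and Ifitm3 (0.76), and within 48 to 94 for Tpsb2 (0.067) and Prss34 (0.11). They changed without BMCP 50 for the interferon list (0.30) and Rsad2 (0.17), without 36 for Tpsb2 (0.062), without 12 for Prss34 (0.064, a setting also listed after seeing the data) and without 29 for Ube2c (-4.44); the cause was not tested. With other cells left out these values reached -2.39 for the interferon list, -4.29 for Tpsb2, -7.03 for Prss34, 6.65 for Ube2c and -6.74 for Rsad2. Leaving out single cells moved the median log2 ratio of the mast cell list between -2.61 and -0.47, of the basophil list between -4.63 and -3.54, of the shared list between -1.05 and -0.83 and of the erythroid list between 0.86 and 1.35. Over the 8 erythroid members at 1 CPM or more, the median was 0.07 within numbers 1 to 47 and 1.24 within 48 to 94. Depth limits genes at a few reads per cell.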
